A study of Mus musculus with 16 samples.

Results

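Gene expression was compared between mouse embryonic stem cells that were treated with WS1442 for 24 h and the same cells treated with the vehicle DMSO for 24 h. WS1442 is a dry ethanolic extract of hawthorn (Crataegus) leaves with flowers. The comparison was defined by the sample labels, and it takes 5 of the 16 samples of the study, 3 treated with WS1442 at 0.25 mg/ml and 2 treated with DMSO. The differentiation assay of the study was read out in the CGR8-Myh6-GFP line, which carries GFP under the promoter of the cardiac gene Myh6. Its array methods name the cells only as mouse embryonic stem cells in this assay. The mouse embryonic stem cells of the study were CGR8 or CGR8-Myh6-GFP cells, so that all samples share 1 genetic background. The cells were grown without LIF in serum-containing differentiation medium in 384-well plates, received the extract or DMSO on day 4 of differentiation, and were collected 24 h later. The same study treated cells for 24 h with 0.1 mg/ml of the MeOH eluate, a fraction of WS1442 (n = 3), and had matching groups at 6 h, with 2 samples for DMSO and 3 for WS1442. These groups entered the normalization, the filter on dim probes and the estimate of the spread behind every p-value, and their own levels are given only where a difference from WS1442 at 24 h was tested. Nothing in the labels says that the replicates were separate cultures, so that p-values measure the spread between these samples, which may be technical.

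Embryonic stem cells that are deprived of LIF leave pluripotency and pass through stages that resemble the early embryo. A primitive streak forms under nodal, Wnt and BMP signals, cells of the streak become mesoderm or endoderm, and part of the mesoderm turns into cardiac and vascular progenitors, while neuroectoderm arises where these signals are low. The transcription factor ATF4 controls genes for amino acid uptake, amino acid synthesis and tRNA synthetases, and SREBP factors control genes for the synthesis of cholesterol and fatty acids.

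RNA of each sample was labelled with Cy3 and hybridised to its own 1-colour array, on which the brightness of a probe measures the amount of a transcript. All values below are log2 signals after quantile normalization over the 16 arrays of the study, changes are differences between the group means of these log2 signals, given ± the standard error of the fit, and a log2 (fold change) of 1 is a doubling. The scanner's software called 63.0% of the gene spots well above background on DMSO replicate 1 and 55.5% on DMSO replicate 2. On the 3 WS1442 arrays this share lay between 56.7% and 59.1%. Probes had to pass this call on all arrays of 1 or more groups, which left 29298 genes, each represented by its brightest such probe. The 5 arrays and those of MeOH eluate at 24 h lay on 1 slide, and the arrays of 6 h lay on another. DMSO replicates 1 and 2 lay in rows 2 and 1 of their slide, and WS1442 replicates 1, 2 and 3 in rows 2, 1 and 2. The incorporation of the dye was 26.1 and 25.8 pmol/µg with DMSO and 31.8, 32.8 and 32.3 pmol/µg with WS1442, so that dye incorporation and treatment cannot be told apart. The RNA integrity number was 8.6 for WS1442 replicate 2 and 10 for the other 4 samples.

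The 2 DMSO arrays differed from each other more than the arrays of the other groups at this time point, and both are therefore given separately throughout. Their signals differed by more than 2-fold for 2073 genes, or 7.08% of those measured on both, of which 719 were higher in replicate 1 and 1354 in replicate 2. This direction depended on the normalization. Scaling to the 75th percentile gave 1232 genes higher in replicate 1 and 631 in replicate 2, and signals without normalization gave 1521 and 507. For pairs of WS1442 arrays the number of genes that differed by more than 2-fold after quantile normalization lay between 368 and 744. For pairs of MeOH eluate arrays it lay between 670 and 938. The median absolute difference over all genes was 0.14 between the DMSO arrays and 0.12 to 0.13 between WS1442 arrays. Of the 25871 genes well above background on both DMSO arrays, 705 differed by more than 2-fold, as did 479 of the 1679 genes detected only on replicate 1 and 371 of the 396 genes detected only on replicate 2. Among the named genes with the largest gaps, 3 show how a single array stood apart. Ell2, a factor of transcription elongation, had signals of 4.25 and 7.98 with DMSO and 8.34, 8.18 and 8.25 with WS1442. Its log2 (fold change) was 4.01 against replicate 1 and 0.27 against replicate 2, and the pooled value of 2.14 (adjusted p = 0.0242) passed the test although only replicate 1 lay apart from the other 4 arrays, and did not pass without it (adjusted p = 0.16). Nppa, the gene of the atrial natriuretic peptide, had signals of 6.47 and 9.10 with DMSO and 6.75, 6.60 and 6.87 with WS1442. Here it was replicate 2 that stood above the rest, and Nppa did not pass the test (adjusted p = 0.134). In the other direction, the nuclear receptor gene Nr1i2 had 6.67 and 4.17 with DMSO beside 4.32, 4.49 and 4.13 with WS1442, and only DMSO replicate 1 was high. For this reason the genes described first are ranked by their change against the nearer of the 2 DMSO arrays.

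**Figure D1:**
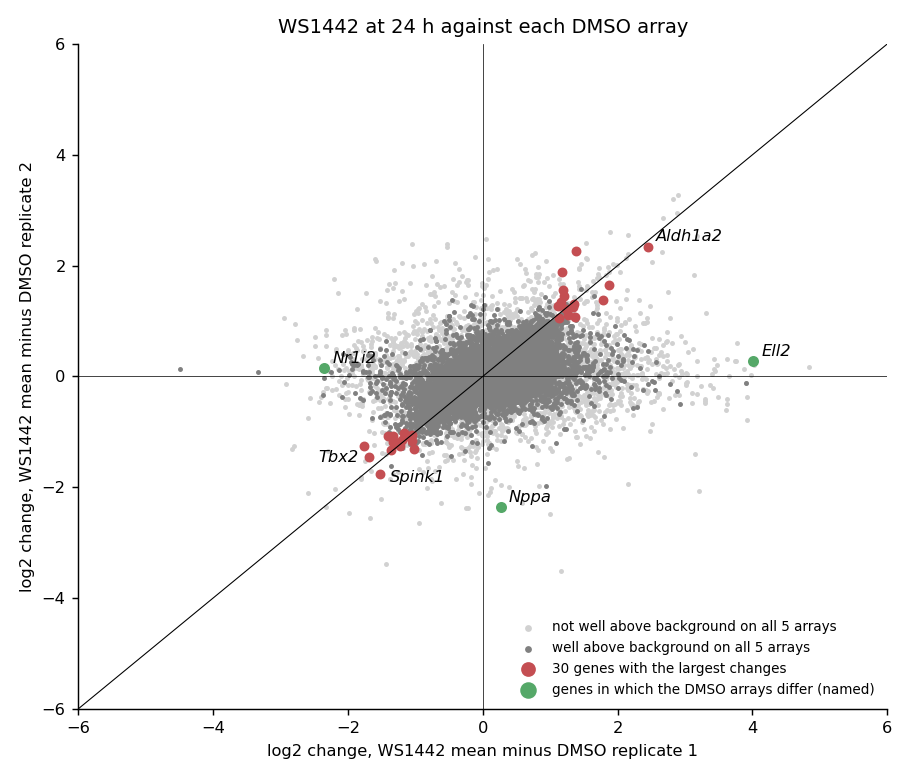
Each point is 1 of the genes tested, with its log2 change from DMSO replicate 1 to the WS1442 mean on the x axis and from DMSO replicate 2 on the y axis; light points were not well above background on all 5 arrays, red points are the 30 genes with the largest changes and green points are Ell2, Nppa and Nr1i2. The red points were ranked by their change against the nearer DMSO array, which favours points near the diagonal, where both DMSO arrays give the same change. Crct1, with 1.38 and 2.27 against replicates 1 and 2, and Csrp3, with 1.18 and 1.89, lie off it. Ell2 and Nr1i2 spread along the x axis and Nppa along the y axis.

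Treatment with WS1442 for 24 h raised 318 genes and lowered 100 genes by more than 2-fold with adjusted p-values under 0.05, which is 1.09% and 0.341% of the genes tested. Without a limit on the fold change, 3771 genes (12.9%) were higher and 3478 (11.9%) were lower at an adjusted p-value under 0.05, so that most differences were smaller than 2-fold. The median log2 (fold change) of all genes was 0.045, with 0.052 against DMSO replicate 1 and 0.018 against replicate 2. A fit of the 5 arrays alone, without the spread of the other groups, gave 147 upregulated and 79 downregulated genes past both limits. The balance of both directions depended on the scaling. Of the 418 genes past both limits 76.1% were upregulated, whereas scaling by the 75th percentile of every array gave 201 upregulated and 147 downregulated genes, or 57.8%, and 2878 higher and 4288 lower genes without a limit on the fold change. It also depended on the DMSO arrays, as 176 genes were upregulated and 91 downregulated without replicate 1, and 1056 and 384 without replicate 2. Of the 418 genes, 98 (23.4%) passed both limits in all 3 fits, 69 of them upregulated. Many of the upregulated genes were dim with DMSO. Of the 318, 146 were well above background on neither DMSO array and 66 on 1 of them. Of these 146, 24 were not well above background on any WS1442 array either, so that their calls rest on signals near background. In all, 163 of the 418 genes were well above background on all 5 arrays, 106 higher and 57 lower.

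Among the 53 upregulated genes with a symbol that were well above background on all 5 arrays and higher on every WS1442 array than on both DMSO arrays, Aldh1a2 stood first. Aldh1a2 is the enzyme that makes retinoic acid from retinaldehyde in the early embryo. Its signals were 6.46 and 6.57 with DMSO and 8.91, 8.79 and 9.02 with WS1442, a log2 (fold change) of 2.39 ± 0.15 (adjusted p = 6.41e-07). The lowest WS1442 array lay far above both DMSO arrays, which were close to each other. Ptgds, a prostaglandin D synthase, rose from 8.11 and 8.33 to 9.72, 9.91 and 10.29, a change of 1.76 ± 0.18 (adjusted p = 2.37e-05). Dusp8, a phosphatase that acts on MAP kinases, rose from 6.75 and 7.15 to 8.50, 8.54 and 8.56, a change of 1.58 ± 0.12 (adjusted p = 1.95e-06). A second probe of Dusp8 gave 0.98. The stress-induced transcription factor gene Atf3 and the nuclear receptor gene Nr4a1, which is an immediate early gene, were already bright with DMSO. Atf3 rose from 9.94 and 9.97 to 11.29, 11.24 and 11.33, a change of 1.33 ± 0.07 (adjusted p = 6.52e-08). Nr4a1 rose from 11.01 and 11.17 to 12.22, 12.24 and 12.36, a change of 1.18 ± 0.08 (adjusted p = 6.92e-07). In both genes the WS1442 arrays lay close together and apart from both DMSO arrays.

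The other 10 of the 15 upregulated genes are given without regard to rank. Kif1a, a motor protein of axonal transport, had 10.03 and 10.05 with DMSO and 11.25, 11.35 and 11.21 with WS1442, a log2 (fold change) of 1.23 ± 0.09 (adjusted p = 1.29e-06). Pcdh19, a protocadherin, rose from 5.68 and 5.42 to 7.05, 6.71 and 6.87, a change of 1.33 ± 0.16 (adjusted p = 5.97e-05). Cpeb1, which binds mRNAs and controls their polyadenylation, rose from 4.81 and 4.44 to 5.97, 6.08 and 5.93, a change of 1.37 ± 0.14 (adjusted p = 2.42e-05). Csrp3, the muscle LIM protein of the sarcomere, rose from 5.23 and 4.51 to 6.27, 6.56 and 6.39, and here the DMSO arrays were themselves apart, with changes of 1.18 against replicate 1 and 1.89 against replicate 2. Crct1 showed a still larger gap between the DMSO arrays, 6.75 and 5.87, beside 8.08, 8.20 and 8.12 with WS1442. Hs3st3a1, which adds sulfate to heparan sulfate, rose from 8.68 and 8.76 to 9.56, 9.82 and 10.05, a change of 1.09 ± 0.13 (adjusted p = 6.79e-05). The remaining 4, Qpct, Fam124a, Doc2g and Fcrl5, had log2 (fold changes) of 1.30, 1.25, 1.19 and 1.22. Of the 15 upregulated genes, Fcrl5 alone was no longer past an adjusted p-value of 0.05 when a DMSO array was left out (adjusted p = 0.0757 without replicate 1).

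Among the 40 downregulated genes chosen in the same way, several are developmental regulators of mesoderm, endoderm and heart. Tbx2, a transcription factor of the cardiac chamber boundary that responds to BMP, fell from 7.89 and 7.66 to 6.13, 6.24 and 6.25, a log2 (fold change) of -1.57 ± 0.15 (adjusted p = 1.19e-05). Spink1, a secreted trypsin inhibitor expressed in endoderm, had the largest fall of the 15 genes, from 7.63 and 7.87 to 6.11, 6.09 and 6.13, a change of -1.64 ± 0.29 (adjusted p = 0.000994). Its WS1442 arrays were closer to each other than the DMSO arrays were. Sox17, a transcription factor of endoderm and of early blood vessels, fell from 7.44 and 7.48 to 6.30, 6.15 and 6.21, a change of -1.24 ± 0.14 (adjusted p = 4.55e-05). A second probe of Sox17 gave 0.38 and did not pass, so that its probes disagree. Fgf3, a ligand of FGF receptors, fell from 9.79 and 9.75 to 8.46, 8.34 and 8.45, a change of -1.35 ± 0.13 (adjusted p = 1.23e-05), and its other 2 probes gave -1.29 and -1.16. Myl7, the atrial myosin light chain, fell from 9.37 and 9.66 to 8.25, 8.31 and 8.48, a change of -1.17 ± 0.16 (adjusted p = 0.000156). Prdm6, a regulator of smooth muscle genes, fell from 8.31 and 8.26 to 7.15, 7.19 and 6.99, a change of -1.17 ± 0.12 (adjusted p = 2.28e-05). In each of these 6 genes both DMSO arrays lay above all WS1442 arrays, as the choice required, and the adjusted p-value stayed under 0.05 without either DMSO array.

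Further downregulated genes included Pcsk5, a protease that activates growth factors of the TGF-beta family, with 8.62 and 8.12 for DMSO and 6.92, 6.83 and 6.83 for WS1442 (-1.51 ± 0.17, adjusted p = 3.86e-05). Pdlim3, a cytoskeletal protein of muscle, fell from 11.27 and 10.94 to 9.88, 9.90 and 9.81 at its brightest probe, while another probe gave 0.30. Lmo1, a transcriptional cofactor, fell from 11.87 and 11.73 to 10.75, 10.77 and 10.60, a change of -1.09 ± 0.08 (adjusted p = 1.95e-06). Trib3, a pseudokinase gene that ATF4 induces, fell from 9.97 and 10.07 to 8.88, 8.93 and 8.92, a change of -1.11 ± 0.14 (adjusted p = 8.5e-05). The remaining genes of this group were Snhg4 at -1.24, Gfod1 at -1.26, Gng8 at -1.09, Hoxb6 at -1.20 and Cbln1 at -1.06. Gng8 did not pass without DMSO replicate 1 (adjusted p = 0.0831), and Hoxb6 did not pass without replicate 1 (0.248) or replicate 2 (0.0948). Of these 30 upregulated and downregulated genes, 7 had another usable probe, and for 5 of them all other probes changed in the same direction.

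**Figure D2:**
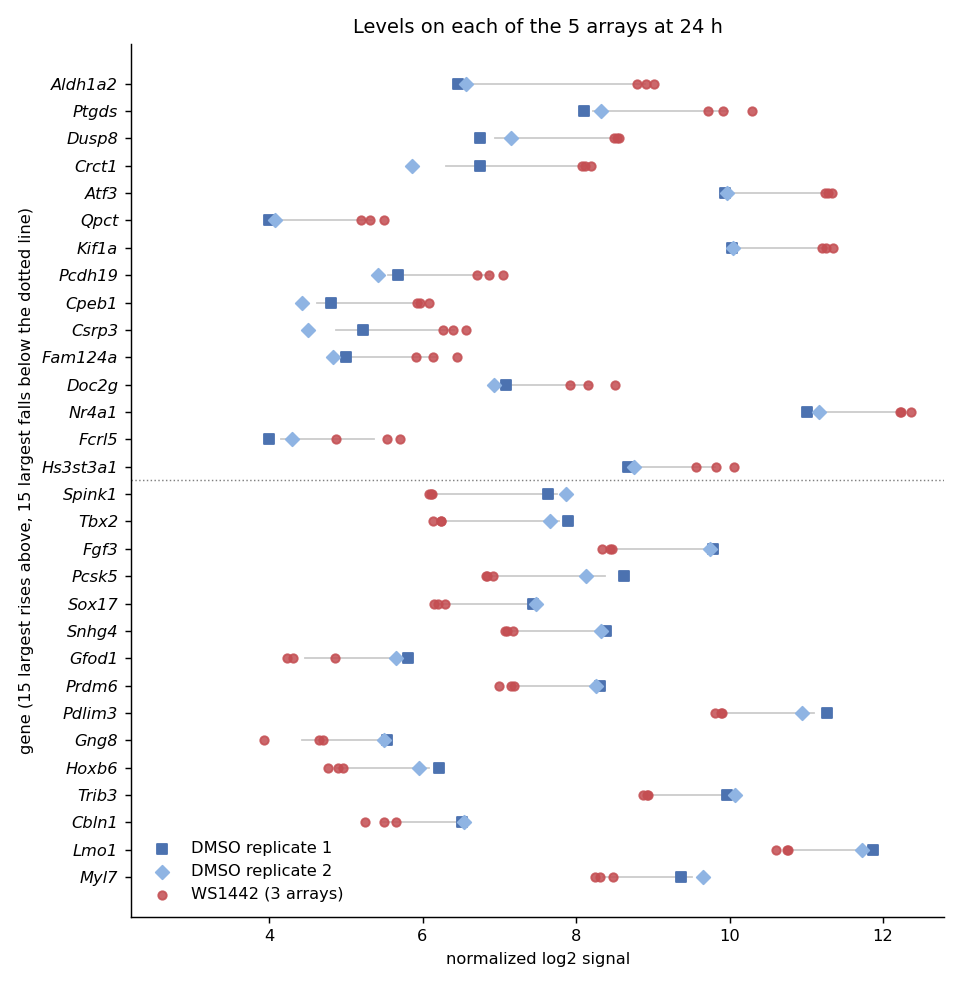
Normalized log2 signal of the 30 genes on each array, with a square for DMSO replicate 1, a diamond for DMSO replicate 2, circles for the 3 WS1442 arrays and a grey line between the group means. In every gene the circles lie on 1 side of both DMSO symbols, as the choice of genes requires, and the widest gaps between the DMSO symbols are those of Crct1 and Csrp3.

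For genes that were not well above background in a whole group only a bound on the fold change can be given. It is the mean of the brighter group over the mean of the dimmer one, with each dim array set to its lowest signal well above background where that was higher. A total of 23 genes with a symbol were well above background on all 3 WS1442 arrays and on neither DMSO array, and higher on each WS1442 array than on both DMSO arrays. The largest bounds were at least 2.76-fold higher for Gdpd4, a phosphodiesterase, and at least 2.46-fold higher for Lce1g, a gene of the cornified envelope of skin. Their adjusted p-values in the fit, 0.000181 and 0.000285, rest on DMSO signals near background in genes chosen for this pattern and do not support it independently. Akr1c18, a steroid-converting aldo-keto reductase, was at least 2.01-fold higher, with measured signals of 2.66 and 2.65 and then 4.55, 4.50 and 4.55. The other 5 of the first 8 were Adgrg2, Klre1, Serpina1e, Obp1a and Prss3, with bounds between 1.99 and 2.34, and of these only Adgrg2 also passed without DMSO replicate 1. In the opposite direction 8 genes were detected on both DMSO arrays and on no WS1442 array. Bcl2l15, a member of the Bcl2 family, was at least 4.03-fold lower, with 5.92 and 5.43 and then 3.35, 3.75 and 2.89. Pcdh12, a protocadherin of endothelial cells, was at least 2.67-fold lower, and Fabp4, a fatty acid binding protein, at least 2.17-fold lower. Pcdh12 did not pass without DMSO replicate 1 (adjusted p = 0.0574), and Fabp4 did not pass without replicate 2 (0.189). For the other 5, Gpr157, Tslrn1, Gapdhs, Mir1191b and Klra7, the bounds lay between 1.17 and 1.8, and each of the 5 lost the call without at least 1 of the DMSO arrays.

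To describe gene groups, the members of 44 lists written from general knowledge were counted at an adjusted p-value under 0.05 over all genes tested, without a limit on the fold change, beside the 12.9% of all genes that were higher and the 11.9% that were lower. Of the resulting 88 counts of higher or lower members, 40 moved by more than 1.5 times without DMSO replicate 1, 18 without replicate 2 and 19 under scaling to the 75th percentile. Such counts are given with the lists they concern, higher before lower. In bulk RNA a lower signal of a gene group can come from fewer cells of a type or from less RNA per cell, which cannot be told apart.

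**Figure D3:**
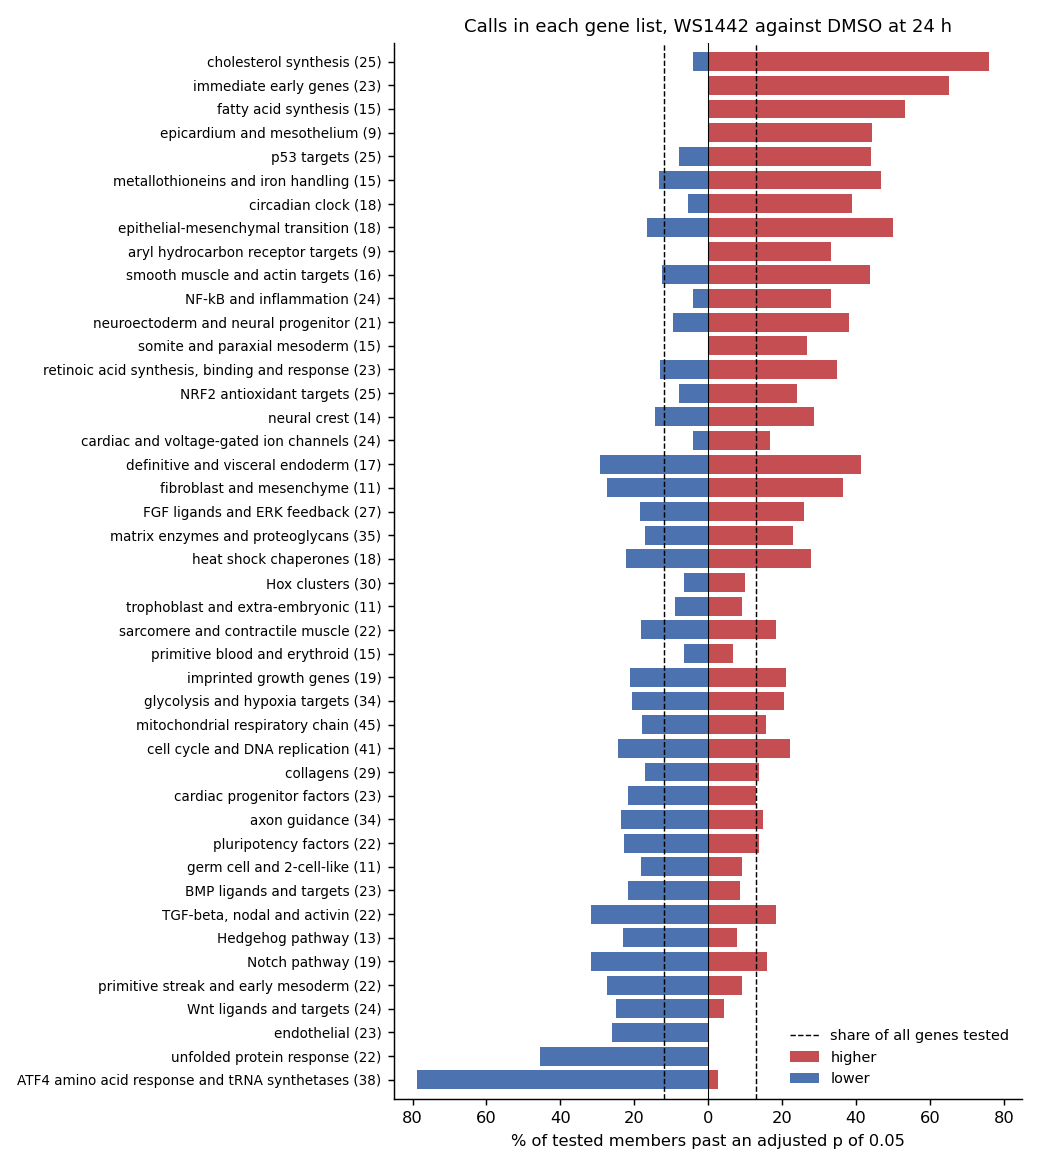
Share of the tested members of each of the 44 gene lists that passed an adjusted p-value of 0.05, with lower genes to the left and higher genes to the right; the number of tested members is in parentheses and the dashed lines mark the shares over all genes tested. The amino acid response list extends furthest to the left and the cholesterol list furthest to the right.

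The group with the largest share of lower genes was that of the ATF4 amino acid response and the tRNA synthetases. Of its 38 tested members 30 were lower and 1 was higher, with a median log2 (fold change) of -0.43 beside 0.045 for all genes. The median was -0.40 against DMSO replicate 1 and -0.46 against replicate 2, and 26 and 24 members were lower when either array was left out. Slc7a5, the transporter of large neutral amino acids, fell from 11.04 and 11.12 to 10.07, 9.96 and 10.04, a change of -1.06 ± 0.07 (adjusted p = 6.41e-07). The mitochondrial folate enzymes, which use serine to supply carbon units, were lower as well. Shmt2 had 10.99 and 11.09 with DMSO and 10.10, 10.18 and 10.02 with WS1442 (-0.94 ± 0.09, adjusted p = 1.15e-05), and Mthfd2 had 10.72 and 10.66 and 9.76, 9.82 and 9.80 (-0.89 ± 0.07, adjusted p = 2.03e-06). Pycr1 and Aldh18a1, enzymes of proline synthesis, had log2 (fold changes) of -0.95 (adjusted p = 0.000448) and -0.76 (adjusted p = 0.00011). The serine synthesis enzymes Psat1, Psph and Phgdh had -0.51, -0.53 and -0.17, the last not past the test without either DMSO array (0.0802 and 0.189), and asparagine synthetase, Asns, had -0.38 (adjusted p = 0.000178). Chac1, which degrades glutathione, fell from 9.80 and 9.84 to 9.11, 9.30 and 9.29, a change of -0.59 ± 0.12 (adjusted p = 0.00305). Among the cytosolic tRNA synthetases, Yars had -0.55, Lars -0.53, Mars1 -0.51 and Nars -0.46, all past the test, while Eprs (-0.07) and Cars (-0.12) did not pass. At this brightest probe Cars was higher, at 0.29, without DMSO replicate 2. Another probe of Cars gave -0.79 and passed as lower, and the mean of its probes was -0.46 (adjusted p = 0.0013 by limma). In Slc7a5, Shmt2, Mthfd2 and Chac1 the DMSO and WS1442 arrays did not overlap. These genes were named for passing the test, so that this adds no support to it. The share of all genes without overlap is not given here.

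The 1 member that rose was Cebpb, a transcription factor of stress and inflammation, at 0.45 ± 0.09 (adjusted p = 0.00299). The Atf4 transcript itself had 13.53 and 13.41 with DMSO and 13.04, 13.10 and 13.26 with WS1442 and did not pass the test (adjusted p = 0.0833). Ddit3, the transcription factor CHOP, also did not pass (0.22, adjusted p = 0.323). Slc7a11, the cystine transporter, had 3.07 and 4.91 and 5.48, 4.43 and 5.25 and an adjusted p-value of 0.0613, with DMSO replicate 1 far below replicate 2. Genes of the unfolded protein response serve protein folding in the endoplasmic reticulum. Of 22 members 10 were lower and 0 higher by limma (0 also at an unadjusted p-value under 0.05, 1 by the methods' t-test), with a median of -0.21, and 5 were lower without DMSO replicate 1 beside 11 without replicate 2. Creld2 had -0.54 ± 0.09 (adjusted p = 0.000562) and Herpud1 -0.54 ± 0.10 (adjusted p = 0.00119), while Hspa5, the chaperone BiP, had 13.01 and 12.77 with DMSO and 12.51, 12.41 and 12.40 with WS1442 and did not pass (adjusted p = 0.0801). The list of heat shock chaperones was split, with 5 of 18 higher, led by Hspa1a at 0.94 (adjusted p = 0.000143) and Cryab at 0.76 (adjusted p = 0.00552), and 4 lower, which became 4 and 2 without DMSO replicate 1 and 3 and 5 under scaling to the 75th percentile.

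The bases TGATGNAAN, the letters of the composite site that ATF4 binds with C/EBP factors, were searched on both strands in the RefSeq promoter windows of mouse genes (build GRCm38.p6), which run from 250 bases before to 50 bases after the start of transcription. Of the 32 tested list members with a window, 12 (37.5%) held these letters in at least 1 of their windows, beside 3.95% of the 32851 windows. The first share counts genes, which may have several windows, and the second counts single windows, so that they are not of the same kind. Of the 12 genes, 11 were lower with WS1442, with a median log2 (fold change) of -0.47, and of the 20 without these letters 14 were lower and 1 was higher, with a median of -0.40. The windows of 4 downregulated members and of Atf3, which holds the same letters but was upregulated, are shown because they set genes with a like motif and opposite changes side by side. The matching letters are in capitals. The window of Trib3 is chr2:152344011-152344310 on the minus strand and the match starts at position 14 from the start site, that of Pycr1 is chr11:120643699-120643998 (minus strand, position -103), that of Chac1 is chr2:119350992-119351291 (plus strand, position -194), that of Asns is chr6:7693160-7693459 (minus strand, position -23) and that of Atf3 is chr1:191183284-191183583 (minus strand, position -111).
Trib3: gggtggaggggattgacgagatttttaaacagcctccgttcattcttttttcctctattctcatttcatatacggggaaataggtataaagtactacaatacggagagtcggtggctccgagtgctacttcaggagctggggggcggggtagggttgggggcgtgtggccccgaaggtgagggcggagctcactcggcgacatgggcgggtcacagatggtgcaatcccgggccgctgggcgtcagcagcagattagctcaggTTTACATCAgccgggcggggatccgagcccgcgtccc
Pycr1: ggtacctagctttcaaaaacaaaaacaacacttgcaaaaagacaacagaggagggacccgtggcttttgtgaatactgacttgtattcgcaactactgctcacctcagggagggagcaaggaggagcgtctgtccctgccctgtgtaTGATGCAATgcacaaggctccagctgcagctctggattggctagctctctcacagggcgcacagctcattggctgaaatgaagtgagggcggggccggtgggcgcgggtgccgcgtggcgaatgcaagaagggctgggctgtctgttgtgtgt
Chac1: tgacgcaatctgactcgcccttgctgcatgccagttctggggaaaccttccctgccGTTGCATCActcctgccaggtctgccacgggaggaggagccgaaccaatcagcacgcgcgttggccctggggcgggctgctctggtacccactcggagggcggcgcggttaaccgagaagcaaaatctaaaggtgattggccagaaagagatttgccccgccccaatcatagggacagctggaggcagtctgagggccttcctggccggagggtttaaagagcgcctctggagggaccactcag
Asns: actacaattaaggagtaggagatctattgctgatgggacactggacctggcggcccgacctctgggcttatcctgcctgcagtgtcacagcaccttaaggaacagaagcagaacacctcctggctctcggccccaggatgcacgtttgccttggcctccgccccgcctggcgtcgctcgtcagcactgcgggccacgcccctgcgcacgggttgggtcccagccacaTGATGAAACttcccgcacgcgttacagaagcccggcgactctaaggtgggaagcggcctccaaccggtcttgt
Atf3: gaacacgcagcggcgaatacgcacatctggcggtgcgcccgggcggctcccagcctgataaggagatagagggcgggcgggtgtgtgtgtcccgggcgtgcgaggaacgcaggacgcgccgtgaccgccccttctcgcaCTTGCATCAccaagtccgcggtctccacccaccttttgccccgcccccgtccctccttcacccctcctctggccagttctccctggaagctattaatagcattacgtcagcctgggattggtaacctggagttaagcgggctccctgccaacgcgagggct
The log2 (fold changes) of these genes were -1.11, -0.95, -0.59, -0.38 and 1.33 in this order. A match of letters is a description of the sequence and was not tested as a binding site.

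Genes of cholesterol synthesis and uptake were the group with the largest share of higher genes. Of 25 members, all of which were well above background on the 5 arrays, 19 were higher and 1 was lower, with a median log2 (fold change) of 0.42. The number of higher genes was 19 without DMSO replicate 1 and 18 without replicate 2. Msmo1, which removes methyl groups from sterols, rose from 13.14 and 13.07 to 14.16, 14.13 and 14.24, a change of 1.07 ± 0.05 (adjusted p = 2.04e-08) at its brightest probe, while another probe gave -0.24 and did not pass. Cyp51, the lanosterol demethylase, rose from 11.75 and 11.67 to 12.50, 12.51 and 12.60, a change of 0.83 ± 0.07 (adjusted p = 2.85e-06). Hmgcs1, which makes HMG-CoA, rose from 13.04 and 13.06 to 13.66, 13.65 and 13.69, a change of 0.61 ± 0.07 (adjusted p = 3.54e-05). Insig1, which restrains SREBP activation, rose, with a change of 0.74 ± 0.12 (adjusted p = 0.000393). For these 4 genes the 3 WS1442 arrays lay above both DMSO arrays, which differed little. This describes genes named for passing the test and adds no support to it. The lower member was mevalonate kinase, Mvk, at -0.19 (adjusted p = 0.0454), which did not pass without either DMSO array (0.199 and 0.107). Srebf2, the SREBP gene of this pathway, had 13.17 and 12.99 with DMSO and 13.21, 13.18 and 13.12 with WS1442 and did not pass (adjusted p = 0.225), and its other 2 probes gave -0.18 and 0.10.

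**Figure D4:**
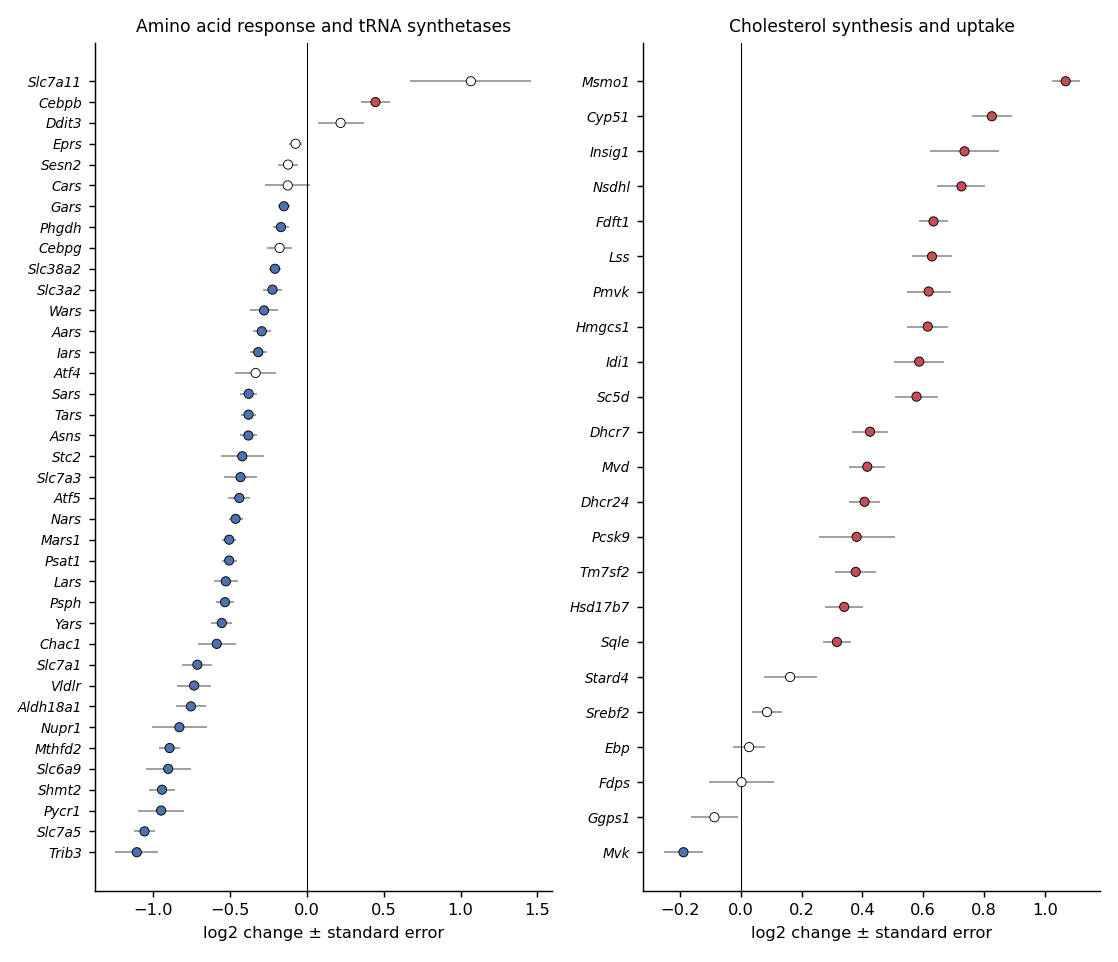
Log2 change from DMSO to WS1442 at 24 h with its standard error for the 38 tested members of the amino acid response list on the left and 23 of the 25 of the cholesterol list on the right; filled circles passed an adjusted p-value of 0.05, blue for lower and red for higher, and open circles did not. On the left 30 circles are blue and 1 is red, and on the right 17 are red and 1 is blue.

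Fatty acid synthesis moved in the same direction, with 8 of 15 members higher and 0 lower by limma (1 at an unadjusted p-value under 0.05, by limma and by the methods' t-test) and a median of 0.31. Fatty acid synthase, Fasn, rose from 14.18 and 14.06 to 14.62, 14.61 and 14.58, a change of 0.48 ± 0.04 (adjusted p = 2.71e-06). Acly, which supplies acetyl-CoA, rose from 13.24 and 13.32 to 13.85, 13.85 and 13.95, a change of 0.60 ± 0.07 (adjusted p = 3.46e-05), and the desaturase gene Fads1 rose, with a change of 0.73 ± 0.07 (adjusted p = 1.91e-05) at its brightest probe, while another probe gave -0.09 and did not pass. Acaca, acetyl-CoA carboxylase, had 10.88 and 11.73 with DMSO and 12.01, 12.03 and 11.96 with WS1442, so that its change was 1.13 against replicate 1 but 0.27 against replicate 2, and its other 3 probes gave -0.09 to 0.46. Srebf1, the SREBP gene of this pathway, was at 0.02 (adjusted p = 0.768). The letters TCACNCCAC, a form of the sterol regulatory element, were found in 1 of 17 cholesterol genes with a window, Hmgcs1, and in none of 12 fatty acid genes. They were found in 1.24% of all windows, which is again a share of single windows and not of genes. The window of Hmgcs1, chr13:119690101-119690400 on the plus strand with the match in capitals at position -137, is shown as the only member with these letters.
Hmgcs1: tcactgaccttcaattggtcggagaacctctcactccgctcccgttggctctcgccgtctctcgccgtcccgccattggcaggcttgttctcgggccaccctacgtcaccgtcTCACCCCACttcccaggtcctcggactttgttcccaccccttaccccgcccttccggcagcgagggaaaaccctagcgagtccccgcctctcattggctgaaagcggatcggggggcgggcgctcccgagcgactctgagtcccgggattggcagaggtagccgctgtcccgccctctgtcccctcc

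Immediate early genes, which growth factors and stress switch on within minutes, were a further group that rose. Of 23 members 15 were higher and 0 lower by limma (0 also at an unadjusted p-value under 0.05, by either limma or the methods' t-test), with a median log2 (fold change) of 0.43. The count was 9 without DMSO replicate 1 and 17 without replicate 2, and in the latter fit 1 member was lower. Beside Atf3 and Nr4a1, the AP-1 gene Fosl1 rose from 6.38 and 6.23 to 7.23, 7.33 and 7.23, a change of 0.96 ± 0.10 (adjusted p = 2.79e-05). Dusp1, a MAP kinase phosphatase, rose from 10.53 and 10.59 to 11.29, 11.42 and 11.25, a change of 0.76 ± 0.06 (adjusted p = 1.95e-06), and the antiproliferative gene Btg2 rose from 9.96 and 10.14 to 10.68, 10.81 and 11.00, a change of 0.78 ± 0.12 (adjusted p = 0.000296). Arc and Junb were at 0.54 and 0.45. Fosl2 depended on the choice of control, with 7.29 and 8.95 for DMSO and 9.19, 9.09 and 8.97 for WS1442, and did not pass without replicate 1 (adjusted p = 0.417). Egr1 behaved in the same way, with 12.27 and 12.60 and then 12.79, 12.70 and 12.91 and an adjusted p-value of 0.261 without replicate 1. The founding members Fos (0.41, adjusted p = 0.0563) and Jun (0.18, adjusted p = 0.0998) did not pass.

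Of 25 target genes of p53, 11 were higher and 2 were lower, with a median of 0.23. Cdkn1a, the cell cycle inhibitor p21, rose from 12.24 and 12.38 to 13.12, 13.22 and 13.21, a change of 0.88 ± 0.07 (adjusted p = 2.3e-06). Mdm2, the ligase that degrades p53, had 10.71 and 11.37 with DMSO and 12.08, 11.90 and 12.02 with WS1442, with changes of 1.29 and 0.63 against the 2 DMSO arrays, and passed without either. Ccng1, Perp and Zmat3 were at 0.46, 0.42 and 0.38. The apoptosis genes of the list did not share a direction. Bbc3 rose by 0.25, a call lost without either DMSO array (0.0704 and 0.0738), Fas and Pmaip1 fell by 0.34 and 0.50 on the log2 scale, with 0.12 at another probe of Fas that did not pass, and Bax had -0.03 (adjusted p = 0.719). Without DMSO replicate 1 the counts of the list were 9 and 1. Of 24 NF-kB and inflammation genes 8 were higher and 1 was lower, or 7 and 0 without DMSO replicate 1 and 8 and 2 under scaling to the 75th percentile. Ccl2, a chemokine, rose from 6.53 and 6.11 to 7.28, 7.39 and 7.41, a change of 1.04 ± 0.17 (adjusted p = 0.000503), and Tnfaip3, an inhibitor of NF-kB, rose from 6.96 and 6.58 to 7.54, 7.53 and 7.41, a change of 0.72 ± 0.11 (adjusted p = 0.000365). Ptgs2, the inducible cyclooxygenase, had 3.09 and 4.54 and then 5.70, 5.31 and 5.49, where only 1 DMSO array was well above background. Nfkbia, the inhibitor that NF-kB induces first, had -0.20 and Tnf 0.13, neither past the test.

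Other stress and sensor lists were smaller or mixed. The metallothionein genes Mt1 and Mt2 rose, with a change of 0.60 ± 0.08 (adjusted p = 9.02e-05) and 0.54 ± 0.12 (adjusted p = 0.00444), the latter not past the test without DMSO replicate 2 (0.0705), while Mt3 fell, with 7.26 and 7.29 and then 6.77, 6.68 and 6.83, and in the list of metallothioneins and iron handling 7 of 15 were higher and 2 lower. These counts were 4 and 1 without DMSO replicate 1 and 4 and 2 under scaling to the 75th percentile. Ahr, the aryl hydrocarbon receptor that binds many plant compounds, rose from 5.20 and 6.13 to 6.94, 6.80 and 6.96, a change of 1.23 ± 0.21 (adjusted p = 0.00068) and its DMSO arrays were far apart. Its repressor gene Ahrr was at -0.20 and did not pass, and 3 of 9 genes of this list were higher. Of 25 antioxidant target genes of NRF2 6 were higher and 2 were lower with a median of 0.06, and Hmox1 (0.06), Nqo1 (0.11) and Gclm (0.18), 3 of its usual reporters, did not pass. The counts were 3 and 4 under scaling to the 75th percentile and 7 and 1 without DMSO replicate 2. In the circadian clock list 7 of 18 were higher and 1 was lower. The repressors Bhlhe40 and Bhlhe41 rose from 10.21 and 10.20 to 11.03, 11.16 and 11.06 (0.87 ± 0.05, adjusted p = 6.41e-07) and from 5.30 and 5.58 to 6.43, 6.33 and 6.44 (0.96 ± 0.14, adjusted p = 0.000241). Cry2 rose at its brightest probe, with a change of 0.65 ± 0.12 (adjusted p = 0.00146), while its other 2 probes gave 0.03 and 0.55 and did not pass. Without DMSO replicate 1 the counts of this list were 3 and 0.

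The label of the cells was checked against markers of cell identity. Pou5f1, the pluripotency factor Oct4, was bright on all 5 arrays and did not pass the test, with 12.83 and 12.87 for DMSO and 12.90, 12.94 and 12.82 for WS1442 (adjusted p = 0.684). Nanog and Zfp42 were dimmer, with 5.30 and 5.41 and 7.11 and 7.03 for DMSO, and did not pass the test. Sox2, which is shared with neural cells, fell, with a change of -0.57 ± 0.15 (adjusted p = 0.0139) and did not pass without DMSO replicate 1 (0.152). Summed over the 5 pluripotency markers on the linear scale, the log2 signal was 12.92 and 12.97 with DMSO and 12.90 to 13.02 with WS1442. Of the 4 cardiomyocyte markers, Myh6 has no probe that passed the filter and has no value here. Tnnt2, cardiac troponin T, had 6.70 and 6.42 and then 6.13, 6.28 and 6.20 and lay at -0.35 (adjusted p = 0.0467), a call lost without DMSO replicate 1 (adjusted p = 0.416). Actn2 was at 0.37 (adjusted p = 0.157). The summed signal of the 3 tested cardiomyocyte markers, most of it Myl7, was 9.75 and 9.90 with DMSO and 8.87 to 9.08 with WS1442. Of the 3 trophoblast markers Elf5 and Tpbpa did not pass the filter, and Gcm1 was tested, at 0.36 (adjusted p = 0.0129) and at an adjusted p-value of 0.187 without DMSO replicate 1. The summed signal of the 3 tested fibroblast-like mesenchyme markers, most of it Col1a1, was 10.79 and 10.63 with DMSO and 9.79 to 10.03 with WS1442. The other 2 did not share this direction, as Twist1 was higher, at 0.34 (adjusted p = 0.0117), and Prrx1 was at 0.28 (adjusted p = 0.629). In the fibroblast and mesenchyme list 4 of 11 were higher and 3 lower, or 3 and 4 under scaling to the 75th percentile. The summed signal of 4 endoderm markers was 10.24 and 10.35 beside 10.26 to 10.46, that of 3 endothelial markers 7.75 and 8.19 beside 7.73 to 7.99 and that of 3 blood markers 8.94 and 8.74 beside 8.96 to 9.06.

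Genes of the primitive streak and early mesoderm were lower where they changed in most cases, with 6 of 22 lower and 2 higher and a median of -0.17. Without DMSO replicate 1 the counts were 0 higher and 6 lower, and under scaling to the 75th percentile 1 and 6. Mixl1, a homeobox gene of the streak, fell from 10.19 and 10.12 to 9.68, 9.70 and 9.68, a change of -0.47 ± 0.07 (adjusted p = 0.000219). Mesp1, which marks mesoderm on its way to the heart, fell from 7.64 and 7.76 to 6.95, 7.01 and 7.17, a change of -0.66 ± 0.14 (adjusted p = 0.00362). Evx1 and the nodal inhibitor gene Lefty2 had -0.58 (adjusted p = 0.00042) and -0.67 (adjusted p = 0.00212). Nodal itself rose, at 0.47 (adjusted p = 0.0182), but did not pass without DMSO replicate 1 (0.154). Brachyury had -0.17 (adjusted p = 0.263) and Eomes -0.20 (adjusted p = 0.125). The summed signal of the 5 early mesoderm markers was 11.45 and 11.47 with DMSO and 11.12 to 11.20 with WS1442, and 2 of these 5 passed as lower. The cardiac progenitor list had 3 higher and 5 lower of 23 members, and 0 and 3 without DMSO replicate 1. Gata4, a factor of heart and endoderm, fell from 9.37 and 9.41 to 8.56, 8.63 and 8.84, a change of -0.72 ± 0.13 (adjusted p = 0.000961), and Tbx3, which Tbx2 resembles, fell from 11.13 and 11.06 to 10.11, 10.09 and 9.99, a change of -1.03 ± 0.09 (adjusted p = 1.06e-05). Nkx2-5 (-0.17), Tbx5 (0.03) and Isl1 (0.34) did not pass, while Mef2c, a transcription factor of heart and muscle, was higher, at 0.48 (adjusted p = 0.0157), and did not pass without DMSO replicate 1 (0.257). The summed signal of the 4 cardiac progenitor markers, which are Nkx2-5, Tbx5, Isl1 and Mef2c, was 8.68 and 8.83 with DMSO and 8.91 to 9.06 with WS1442, and 1 of the 4 passed as higher.

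Of 23 endothelial genes 6 were lower and 0 higher by limma (0 also at an unadjusted p-value under 0.05, 2 by the methods' t-test). Etv2, the factor that commits mesoderm to blood vessels and blood, fell from 11.24 and 11.13 to 10.10, 10.20 and 10.14, a change of -1.04 ± 0.10 (adjusted p = 1.21e-05). Tal1, which acts in the same lineage, fell from 8.30 and 7.92 to 7.06, 6.92 and 6.76, a change of -1.19 ± 0.16 (adjusted p = 0.000157). Plvap, a protein of endothelial fenestrae, fell from 7.14 and 6.91 to 5.96, 5.84 and 6.13, a change of -1.05 ± 0.19 (adjusted p = 0.00111), and the secreted factor Egfl7 fell, with a change of -0.59 ± 0.06 (adjusted p = 2.79e-05). The 2 groups of arrays did not overlap in these 4 genes, which were named for passing the test, so that this adds no support to it. Kdr, the VEGF receptor of vascular progenitors, had 8.27 and 8.57 with DMSO and 8.39, 8.33 and 8.46 with WS1442, with replicate 1 below and replicate 2 above all WS1442 arrays, and Pecam1 was at -0.02 (adjusted p = 0.94). The list of primitive blood genes had 1 member higher and 1, Tal1, lower of 15, which is below the share over all genes.

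Among neural genes more were higher than lower. Of 21 neuroectoderm and neural progenitor genes 8 were higher and 2 were lower, with a median of 0.24, and 5 and 1 without DMSO replicate 1. Nes, the intermediate filament of neural progenitors, rose from 11.29 and 11.27 to 11.97, 12.15 and 12.07, a change of 0.78 ± 0.08 (adjusted p = 2.42e-05). Nkx2-2, a factor of the ventral neural tube, rose from 9.57 and 9.46 to 10.10, 10.15 and 10.44, a change of 0.71 ± 0.09 (adjusted p = 0.00012), and Sox1, an early neural factor, rose, with a change of 0.41 ± 0.10 (adjusted p = 0.00639) that did not pass without DMSO replicate 1 (0.0716). Pax6 was well above background on only 1 DMSO array and did not pass without replicate 1 (0.371). Hes5, a Notch target of neural progenitors, fell from 14.22 and 14.30 to 13.72, 13.79 and 13.68, a change of -0.53 ± 0.09 (adjusted p = 0.000859), and the pan-neural genes Tubb3 (-0.11) and Sox3 (0.24) did not pass. All 3 neuroectoderm markers were higher, with a summed signal of 11.35 and 11.33 for DMSO and 12.02 to 12.20 for WS1442, most of it from Nes. Tfap2b, a factor of neural crest and surface ectoderm, rose from 9.47 and 9.62 to 10.42, 10.57 and 10.82, a change of 1.05 ± 0.13 (adjusted p = 6.5e-05), in a list of 14 neural crest genes with 4 higher and 2 lower, or 4 and 1 without DMSO replicate 1.

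The endoderm list was divided. Of 17 members 7 were higher and 5 were lower, and without DMSO replicate 1 4 were higher and 4 lower. Beside Spink1 and Sox17, the chemokine receptor gene Cxcr4 fell from 7.23 and 7.44 to 6.49, 6.74 and 6.68, a change of -0.70 ± 0.12 (adjusted p = 0.000799), and the endoderm gene Cer1 of the streak list fell, with a change of -1.10 ± 0.27 (adjusted p = 0.00758) that did not pass without replicate 2 (0.0502). The higher members were largely genes of epithelia, Cldn6 at 0.56, Epcam at 0.45, Krt8 at 0.41 and the fetal serum protein Afp at 0.52. Krt18 and Krt19, at 0.23 and 0.23, lost their direction under scaling to the 75th percentile, with -0.040 and -0.033, and their calls without DMSO replicate 1 (0.0861 and 0.0694). Foxa2 was at -0.24 (adjusted p = 0.264). In the list of epithelial-mesenchymal transition, which holds genes of both states, 9 of 18 were higher and 3 were lower. The tight junction genes Cldn3 and Cldn7 and the splicing factor Esrp1 of epithelia rose by 0.70, 0.51 and 0.55. Another probe each of Cldn7 and Esrp1 gave 0.26 and 0.25, and these did not pass. Cldn3 had 8.91 and 9.04 with DMSO and 9.66, 9.79 and 9.59 with WS1442. Of the mesenchymal members Snai1, a repressor of E-cadherin, fell from 11.33 and 11.41 to 10.71, 10.68 and 10.74, a change of -0.66 ± 0.11 (adjusted p = 0.000542), and Cdh11 fell from 9.91 and 9.69 to 8.80, 8.62 and 8.63, a change of -1.12 ± 0.12 (adjusted p = 3.57e-05). Cdh1, E-cadherin, and Cdh2, N-cadherin, were at 0.29 (adjusted p = 0.00809) and -0.31 (adjusted p = 0.00153), and Cdh1 did not pass without DMSO replicate 2 (0.0532). Vim, a mesenchymal gene, rose by 0.35, and Zeb1 (0.10) did not pass.

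Since Aldh1a2 makes retinoic acid, the genes of that pathway, with Aldh1a2 itself among them, were listed by role. Of 23 members 8 were higher and 3 were lower, with a median of 0.08, and without DMSO replicate 1 and replicate 2 the counts were 5 and 1 and then 4 and 3. Rdh10, which makes retinaldehyde from retinol, rose from 8.07 and 7.78 to 8.51, 8.32 and 8.35, a change of 0.47 ± 0.10 (adjusted p = 0.00245). Of the enzymes that degrade retinoic acid, Cyp26b1 fell from 6.76 and 6.68 to 5.96, 5.90 and 5.87, a change of -0.81 ± 0.14 (adjusted p = 0.000842), and Cyp26a1, which retinoic acid induces in many cells, had 10.23 and 10.23 with DMSO and 10.13, 10.13 and 10.36 with WS1442 (adjusted p = 0.909). The target gene Tgm2, a transglutaminase, rose from 9.81 and 9.84 to 10.35, 10.43 and 10.47, a change of 0.59 ± 0.08 (adjusted p = 9.55e-05). The early Hox target Hoxb1 (0.40) did not pass, nor did Dhrs3 (0.31), whose other probe gave 0.82 and which passed as the mean of both probes. The receptor genes Rara and Rxra were lower, at -0.27 (adjusted p = 0.00308) and -0.30 (adjusted p = 0.00869), and neither passed without DMSO replicate 1. Among 30 Hox genes 3 were higher and 2 were lower, or 2 and 1 without DMSO replicate 1 and 4 and 1 without replicate 2, with Hoxb3 at 0.55 (adjusted p = 0.00529) and Hoxa9 at -0.90 (adjusted p = 0.000431). Foxc1 and Foxc2, factors of paraxial mesoderm, rose from 9.10 and 9.27 to 10.01, 9.88 and 10.09 (0.81 ± 0.16, adjusted p = 0.00198) and from 7.66 and 7.66 to 8.49, 8.45 and 8.38 (0.79 ± 0.11, adjusted p = 0.000203).

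Of the developmental signals, BMP genes had 5 of 23 members lower and 2 higher, with a median of -0.21, and 1 higher and 4 lower without DMSO replicate 1. Beside the BMP-induced factors Tbx2 and Tbx3, the inhibitor gene Smad7 fell from 9.99 and 10.08 to 9.34, 9.39 and 9.42, a change of -0.66 ± 0.07 (adjusted p = 2.42e-05), and Msx1 was at -0.48. Bambi, a decoy receptor, rose from 7.95 and 8.13 to 8.87, 9.10 and 9.37, a change of 1.07 ± 0.13 (adjusted p = 5.67e-05). The direct target Id1 had 11.12 and 11.29 and then 10.60, 10.37 and 10.59 but an adjusted p-value of 0.149, and the ligands Bmp2 (0.28) and Bmp4 (-0.21) did not pass. In the TGF-beta, nodal and activin list 7 of 22 were lower and 4 higher, and none of the 4 passed without DMSO replicate 1. In the Wnt list 6 of 24 were lower and 1 higher. Apcdd1 and Znrf3, inhibitors that Wnt induces, fell from 9.15 and 8.95 to 8.13, 7.85 and 7.97 (-1.06 ± 0.13, adjusted p = 6.72e-05) and from 9.02 and 8.90 to 8.41, 8.14 and 7.58 (-0.92 ± 0.19, adjusted p = 0.00312). For Znrf3 this holds at its brightest probe only, as its other 2 probes gave -0.03 and -0.01 and did not pass. Wnt5a fell, with a change of -0.82 ± 0.10 (adjusted p = 4.49e-05), and the target Axin2 was at 0.17 (adjusted p = 0.433). The ligand Wnt6 rose from 9.86 and 9.58 to 10.84, 10.67 and 10.42, a change of 0.92 ± 0.14 (adjusted p = 0.000392). FGF genes were mixed, with 7 of 27 higher and 5 lower, and 3 and 5 without DMSO replicate 1. Spry2, a feedback inhibitor, was at -0.58 (adjusted p = 0.0042) and Dusp4, a phosphatase induced by ERK, at 0.55 (adjusted p = 3.11e-05). Another probe of Dusp4 gave 0.17 and did not pass. Notch genes had 6 of 19 lower and 3 higher, with the targets Hes1 and Hes5 at -0.27 and -0.53, and 2 higher and 3 lower without DMSO replicate 1.

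Genes of the collagen matrix changed in a few members. Col1a1 and Col1a2, the chains of type I collagen, fell from 10.56 and 10.40 to 9.44, 9.53 and 9.21 (-1.09 ± 0.14, adjusted p = 8.76e-05) and from 10.17 and 10.10 to 9.34, 9.31 and 9.20 (-0.85 ± 0.09, adjusted p = 1.95e-05), and the proteoglycan gene Bgn fell from 9.37 and 9.13 to 8.45, 8.36 and 8.05 (-0.96 ± 0.14, adjusted p = 0.000192). Thbs1, a thrombospondin, rose from 10.51 and 10.35 to 11.15, 11.19 and 11.20, a change of 0.75 ± 0.09 (adjusted p = 4.32e-05). In the whole collagen list 4 of 29 were higher and 5 were lower, with 2 and 2 without DMSO replicate 1 and 1 and 4 without replicate 2. The sarcomere list had 4 of 22 higher, led by Csrp3, and 4 lower, led by Myl7, with a median of -0.02. Cell cycle genes (9 of 41 higher, 10 lower, median -0.01), mitochondrial respiratory chain genes (7 of 45 higher, 8 lower, median 0.02) and glycolysis and hypoxia genes (7 of 34 higher, 7 lower, median -0.02) showed small changes in both directions. Under scaling to the 75th percentile these splits were 4 and 13, 1 and 18, and 4 and 11, so that their balance was not stable. Without DMSO replicate 1 they were 7 and 4, 5 and 6, and 4 and 5, and without replicate 2 they were 9 and 6, 6 and 7, and 6 and 0. Slc2a1, the glucose transporter of the last list, rose from 14.83 and 14.92 to 15.42, 15.44 and 15.51, a change of 0.58 ± 0.07 (adjusted p = 0.000108).

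MeOH eluate at 24 h was compared directly with WS1442 at 24 h. The difference is between the means of these 2 groups, while its standard error and adjusted p-value rest on the spread within all groups, DMSO included. The doses were 0.1 mg/ml and 0.25 mg/ml, and any difference holds for these unequal doses. With adjusted p-values under 0.05, 4285 genes (14.6%) differed between both treatments. Aldh1a2 had a log2 (fold change) from DMSO of 2.39 with WS1442 and 2.77 with MeOH eluate, and the difference of -0.38 ± 0.14 (adjusted p = 0.0789) did not pass. In the amino acid response list 18 of 38 members differed, and in all 18 the level was higher with WS1442. For Trib3 the changes from DMSO were -1.11 and -1.97, a difference of 0.86 ± 0.12 (adjusted p = 0.000584), and for Chac1 -0.59 and -1.93, a difference of 1.34 ± 0.11 (adjusted p = 1.47e-05). In the cholesterol list 19 of 25 differed, with 17 higher with WS1442. Msmo1 changed by 1.07 and 0.61, a difference of 0.46 ± 0.04 (adjusted p = 2.65e-05), and Insig1 by 0.74 and 0.10, a difference of 0.63 ± 0.10 (adjusted p = 0.00116). Among the developmental genes, Etv2 changed by -1.04 and -2.52, a difference of 1.48 ± 0.09 (adjusted p = 4.16e-07), Tbx2 by -1.57 and -2.34, a difference of 0.77 ± 0.13 (adjusted p = 0.00148), and Mixl1 by -0.47 and -1.20, a difference of 0.73 ± 0.06 (adjusted p = 1.56e-05). Bambi and Hs3st3a1 were higher with WS1442 than with MeOH eluate, by 0.82 ± 0.11 (adjusted p = 0.000457) and 0.84 ± 0.12 (adjusted p = 0.000496), and Pcdh19 was lower, with a difference of -1.19 ± 0.14 (adjusted p = 0.00019). The p53 targets that differed, 8 of 25, were all lower with WS1442.

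The effect of WS1442 at 24 h was also set against its effect at 6 h, each relative to DMSO of its own time point. Each time point had its own slide, so that differences between the times and between the slides cannot be told apart. With adjusted p-values under 0.05, the effects of 3719 genes (12.7%) differed. At 6 h 3 of the 38 amino acid response genes were lower and 2 higher with a median of 0.05, beside 1.45% of all genes lower and 4.14% higher, and the effect was more negative at 24 h for 22 of the 38. Slc7a5 had -0.02 at 6 h and -1.06 at 24 h, a difference of -1.04 ± 0.09 (adjusted p = 5.69e-05). The cholesterol genes were raised at both times. At 6 h 20 of 25 were higher with a median of 0.41, and the effect differed between the times for 2 of the 25, Msmo1 with 0.74 at 6 h and 1.07 at 24 h and Mvk with 0.23 and -0.19. Among the immediate early genes 11 of 23 were higher at 6 h and 7 had different effects, in 5 of them more positive at 24 h, among them Fosl1 with 0.14 at 6 h and a difference of 0.81 ± 0.14 (adjusted p = 0.0038). Etv2 was at 0.01 at 6 h and differed by -1.06 ± 0.14 (adjusted p = 0.000793), and of the 23 endothelial genes 5 had a more negative effect at 24 h. Some genes changed direction. Fgf3 had 0.72 at 6 h and -1.35 at 24 h, and Myl7 had 0.61 and -1.17. Mixl1 was lower at both times, with -0.99 at 6 h and a weaker -0.47 at 24 h with a difference of 0.53 ± 0.10 (adjusted p = 0.00413), and Foxc2 was higher at both, with 1.85 and 0.79 with a difference of -1.07 ± 0.16 (adjusted p = 0.00147).

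**Figure D5:**
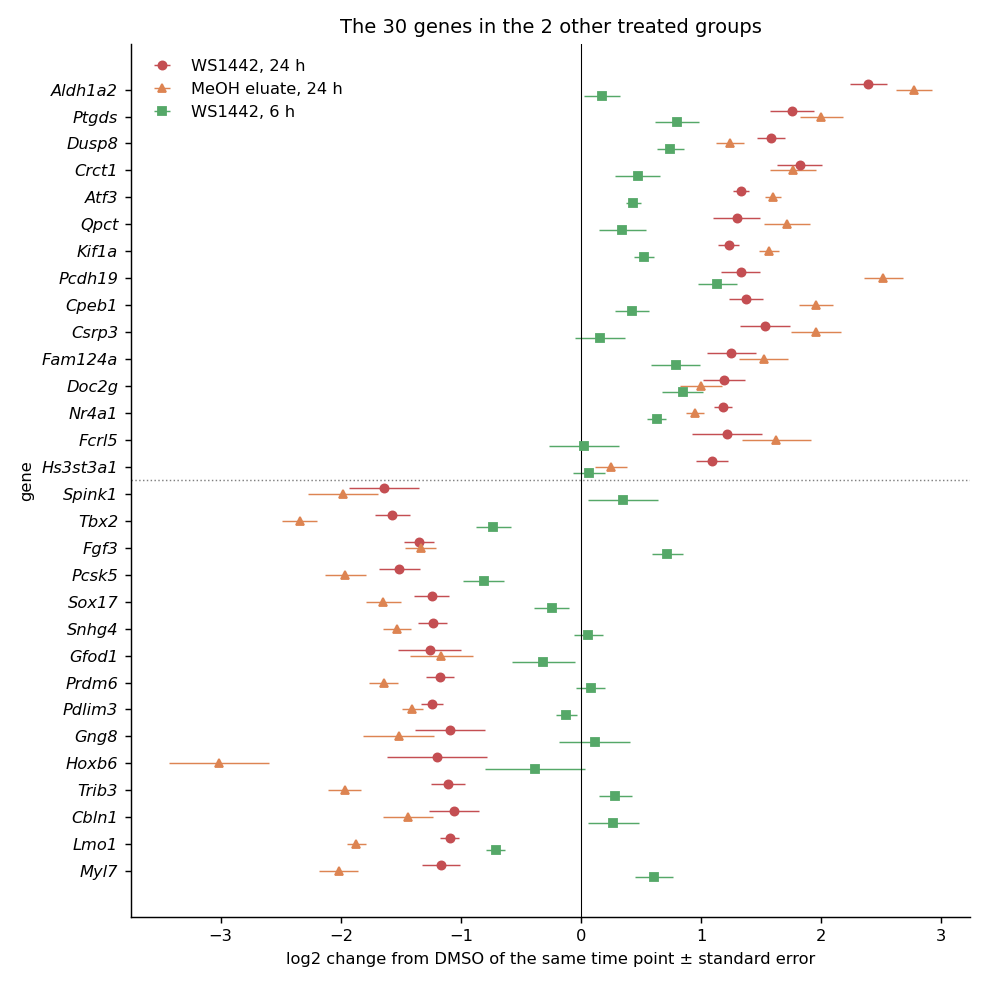
Log2 change from DMSO of the same time point with its standard error for the 30 genes with the largest changes, for WS1442 at 24 h (circles), MeOH eluate at 24 h (triangles) and WS1442 at 6 h (squares). Circles and triangles share the DMSO arrays of 24 h. The genes were chosen for large values of the circles. The squares of Spink1, Fgf3, Snhg4, Prdm6, Gng8, Trib3, Cbln1 and Myl7 lie on the other side of 0 from their circles.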

How the data were processed

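Per the labels and the methods of the study, total RNA was labelled with Cy3 and hybridised to 1-colour Agilent arrays. The authors deposited the processed signal intensity per spot, in which the scanner's software had corrected background and spatial trends, together with linear intensities after quantile normalization, whose 16 columns each correlated best with their own array. Arrays carry no counts, so that precision rests on their number. Starting from the scanner's intensities, control spots and spots marked as non-uniform were left out, log2 values were quantile normalized over 16 arrays, and 6 group means were fitted with limma 3.58.1 in R 4.3.3 (eBayes with trend, Benjamini-Hochberg adjustment over 29298 genes). Of 60273 probes 42266 were given 1 symbol through accession or name in RefSeq (GRCm38.p6), 855 had several and 17152 none. Of 203 genes given in the text, 37 had another usable probe. For 30 of them all other probes changed in the same direction, and 0 had another probe called the opposite way. Tables and figures were made with Python 3.11.15.

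The text names the 15 largest rises and falls among genes with symbols, past both limits, well above background on all 5 arrays and with all WS1442 arrays beyond both DMSO arrays, ranked against the nearer DMSO array; up to 8 genes per direction with a bound; the genes with the largest gaps between the DMSO arrays; and called or defining members of the lists. Members, lists and tests were chosen with earlier results of these data known. The procedure was tested on simulated data. The alternatives were other normalizations, background correction, filters, probe choices, fits, blocks, the table of the authors, the methods' t-test and each array left out. The values of 2 single genes of the cholesterol list are not reported here.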

Additional observations from a re-analysis of the deposited data

Results flagged for a closer look

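The 46 genes named for the largest changes or bounds were chosen for their effect at 24 h, which favours a difference from 6 h, and 29 of them had an effect of WS1442 at 24 h that differed from that at 6 h at an adjusted p-value under 0.05 by limma. The values below are the log2 effect at 24 h minus that at 6 h, each relative to DMSO of its own time point and slide. Time point and slide cannot be told apart in them. Among those of the 46 genes that were well above background on all 5 arrays, the largest positive difference was that of Aldh1a2 at 2.22 ± 0.22 (adjusted p = 0.000111). Further positive differences were 1.38 for Csrp3, 1.35 for Crct1 and 1.02 for Hs3st3a1. Smaller ones were 0.96 for Ptgds, 0.95 for Qpct, 0.95 for Cpeb1, 0.89 for Atf3, 0.84 for Dusp8, 0.70 for Kif1a and 0.55 for Nr4a1. The most negative difference among these genes was that of Fgf3 at -2.07 ± 0.18 (adjusted p = 5.15e-05). Others were -1.996 for Spink1, -1.78 for Myl7, -1.40 for Trib3, -1.33 for Cbln1, -1.30 for Snhg4 and -1.25 for Prdm6. The remaining ones were -1.12 for Pdlim3, -1.001 for Sox17, -0.84 for Tbx2 and -0.38 for Lmo1. A further 7 genes were not well above background in 1 of the groups at 24 h, so that their fitted differences are not measured sizes and are not ranked. Fitted values were 1.43 for Gdpd4, 2.57 for Lce1g, 1.63 for Adgrg2, 1.71 for Akr1c18, 1.69 for Prss3, -2.29 for Bcl2l15 and -1.97 for Klra7. The groups of 2 and 3 arrays are too small for a test of single outlying arrays.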

How the results depend on the processing

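The counts of genes past 2-fold and an adjusted p-value under 0.05, 318 higher and 100 lower, stayed within 1.5 times under some settings and moved under others, in this order higher and lower. Scaling to the 75th percentile gave 201 and 147, normexp correction, which adds 50 to each signal, gave 13 and 11, the absence of a filter on dim probes gave 299 and 199, and a filter that requires all 5 arrays gave 107 and 57. A fit of the 5 arrays gave 147 and 79 and a fit of the 8 arrays of 24 h gave 203 and 80. The methods' t-test, named in the paper in general and not for its arrays, gave 5 and 4, and 174 and 86 at unadjusted p-values. Without single arrays they ranged from 176 to 1056 and from 80 to 384. Without a limit on the fold change the counts of 3771 and 3478 moved to 55 and 49 with the methods' t-test, ranged from 2035 to 3920 and from 1804 to 3320 without single arrays, and otherwise stayed within 1.5 times. The deviations of DMSO and WS1442 samples of the same number from their group means had correlations of -0.13 and -0.24 for replicates 1 and 2. With 2 DMSO arrays the deviations of 1 array mirror those of the other. These values therefore cannot decide whether the numbers pair the samples. A replicate block gave 199 and 68 genes past 2-fold, and 2791 and 2541 without that limit. The cause of these shifts was not tested, apart from the filters, which change the number of genes tested to 45002 and 25253. Of the 46 genes named for the largest changes or bounds, 39 were not past an adjusted p-value of 0.05 with the methods' t-test, 10 without DMSO replicate 1, 7 without DMSO replicate 2 and 5 with the replicate block, and all kept their direction under every alternative run. Of the 88 counts of higher or lower list members, 40 moved by more than 1.5 times without DMSO replicate 1 and 18 without replicate 2, 19 with scaling to the 75th percentile, 16 with the replicate block, 12 without the filter, 4 with a block for slide rows and 0 with the table of the authors, and 9, 14 and 19 without WS1442 replicates 1, 2 and 3. Of the genes given in the text, those that changed direction were the following. Scaling to the 75th percentile gave -0.040 for Krt18, -0.033 for Krt19, -0.060 for Pou5f1, -0.061 for Srebf1 and -0.052 for Srebf2, and normexp correction gave 0.003 for Pecam1. Without single arrays the log2 (fold change) ranged from -0.072 to 0.010 for Bax, from -0.54 to 0.29 for Cars, from -0.098 to 0.016 for Cyp26a1, from -0.18 to 0.12 for Kdr, from -0.37 to 0.037 for Nkx2-5 and from -2.36 to 0.27 for Nppa. The ranges were -2.36 to 0.15 for Nr1i2, -0.24 to 0.20 for Pecam1, -0.001 to 0.17 for Srebf2 and -0.099 to 0.15 for Tbx5.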
